A study of Arabidopsis thaliana with 10 samples.

Results

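Small RNAs that match transfer RNA (tRNA) genes of *Arabidopsis thaliana* were examined in pollen, using all loci that the deposited annotation classes as tRNA precursors. There were 631 such loci among 33271 loci in the tables, or 568 of 32982 when loci with identical values in every library were counted once, and numbers of tested loci below use this second way of counting. In RefSeq, 623 of the 631 are tRNA genes and 8 are pseudogenes. They lie on the nuclear chromosomes, with 240 on chromosome 1, 96 on chromosome 2, 93 on chromosome 3, 79 on chromosome 4 and 123 on chromosome 5. The study has 5 groups with 2 libraries each, all in the Col-0 ecotype and from greenhouse plants in long days. WT Col-0 pollen carries no transgene. *pLAT52::RTL1* pollen carries RTL1-Myc, an RNase III-like enzyme that cleaves double-stranded RNA and so blocks small interfering RNAs, under a promoter active in the late microspore and then mainly in the vegetative cell. *pMGH3::RTL1* pollen carries the same protein under a promoter of the male germline, and both libraries of each construct came from independent transgenic lines. WT FTL and *nrpd1a-3* FTL pollen were separated by fluorescence-activated sorting from plants heterozygous for the *nrpd1a-3* T-DNA allele and for a pLAT52::DsRed reporter linked to *NRPD1A*, the gene for the largest subunit of RNA polymerase IV. The red grains are the WT FTL group, the non-fluorescent grains are the mutant group, and the parent plants carried 1 functional *NRPD1A* allele. Pollen holds a vegetative cell and the sperm cells together, so a level in a library cannot be given to either cell, and fewer cells of a type and less RNA per cell cannot be told apart.

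tRNAs are short folded RNAs that carry amino acids to the ribosome, and each reads its codons through a 3-base anticodon. Their genes are transcribed by RNA polymerase III, RNase P trims the 5′ end and tRNase Z the 3′ end, and the bases CCA are then added to the 3′ end without a template. Mature tRNAs are also cut into fragments, and those that keep the 5′ end are a known class of small RNA in plant pollen. Plants have many copies of most tRNA genes, and fragments from identical copies cannot be assigned to 1 gene. Genes are named here by amino acid and anticodon, so that Arg-CCG is an arginine tRNA with the anticodon CCG.

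Sequences of 13 genes are shown because the results turn on their 5′ ends. They are the mature gene sequences, read from the RefSeq annotation of TAIR10.1 in the 5′ to 3′ direction with introns left out and with the first 19 bases in capitals. AT1G79240 (chr1:29804123-29804195, plus strand) belongs to the 5′ end with the highest signal per gene and AT3G04525 (chr3:1220229-1220301, plus strand) has the same anticodon with another 5′ end.
AT1G79240 Arg-CCG: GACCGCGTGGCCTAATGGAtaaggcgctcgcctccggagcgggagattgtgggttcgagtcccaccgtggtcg
AT3G04525 Arg-CCG: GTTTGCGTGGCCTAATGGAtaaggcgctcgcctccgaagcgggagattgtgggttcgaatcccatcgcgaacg
The next 5 stand for other abundant 5′ ends. They are AT1G57000 (chr1:21282454-21282535, plus strand), AT3G11285 (chr3:3535146-3535218, plus strand), AT1G75740 (chr1:28440889-28440960, plus strand), AT1G06610 (chr1:2025356-2025428, plus strand) and AT5G50995 (chr5:20741626-20741714, minus strand, with an intron).
AT1G57000 Ser-AGA: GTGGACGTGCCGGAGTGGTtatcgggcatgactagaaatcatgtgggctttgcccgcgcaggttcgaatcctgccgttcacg
AT3G11285 Arg-CCT: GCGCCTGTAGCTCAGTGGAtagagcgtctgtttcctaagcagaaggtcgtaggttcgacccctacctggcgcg
AT1G75740 Thr-CGT: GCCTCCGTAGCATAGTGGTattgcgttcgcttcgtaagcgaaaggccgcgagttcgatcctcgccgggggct
AT1G06610 Ala-AGC: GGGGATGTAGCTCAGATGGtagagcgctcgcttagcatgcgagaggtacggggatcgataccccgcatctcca
AT5G50995 Tyr-GTA: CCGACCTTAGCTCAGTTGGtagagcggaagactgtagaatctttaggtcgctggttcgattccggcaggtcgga
The last 6 belong to the tests between groups. They are AT4G32265 (chr4:15576650-15576722, plus strand), AT2G36600 (chr2:15346160-15346232, plus strand), AT5G10235 (chr5:3212351-3212423, minus strand), AT2G07792 (chr2:3332685-3332759, plus strand), AT2G07765 (chr2:3497358-3497440, plus strand) and AT2G07755 (chr2:3328670-3328742, minus strand).
AT4G32265 Arg-TCT: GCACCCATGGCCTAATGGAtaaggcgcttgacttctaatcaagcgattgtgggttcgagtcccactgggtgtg
AT2G36600 Arg-TCT: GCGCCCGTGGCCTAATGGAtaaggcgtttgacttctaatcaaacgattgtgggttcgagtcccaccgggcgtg
AT5G10235 Arg-ACG: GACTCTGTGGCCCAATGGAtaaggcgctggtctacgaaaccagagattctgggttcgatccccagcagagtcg
AT2G07792 Tyr-GTA: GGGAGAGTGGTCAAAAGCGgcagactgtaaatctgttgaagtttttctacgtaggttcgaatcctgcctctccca
AT2G07765 Tyr-GTA: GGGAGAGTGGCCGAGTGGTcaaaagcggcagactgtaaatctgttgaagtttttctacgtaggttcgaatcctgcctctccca
AT2G07755 Met-CAT: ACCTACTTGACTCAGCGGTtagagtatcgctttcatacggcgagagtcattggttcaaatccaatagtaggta

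The 623 tRNA genes cover 20 amino acids and 47 anticodons, 81 of them have an intron, and their mature sequences of 69 to 88 bases fall into 209 distinct sequences. The measure is a depth-scaled signal (RPM) in which a read with several perfect matches in the genome counts for a fraction at each of them. A single read was worth between 0.430 and 1.46 RPM, and the libraries held between 4296913 and 10349594 hit-weighted reads on loci, of which 303657 to 3335723 were at tRNA loci. Signal at MIR845a, a pollen microRNA gene, ranged from 382206 to 859267 RPM in the unsorted groups. In the sorted groups it was 429793 and 79042 RPM in WT FTL pollen against 252148 and 56465 RPM in the *nrpd1a-3* FTL grains, so that replicate 2 was low in both. The 9 MIR165 and MIR166 genes, listed as markers of other floral tissue, had 52343 to 148920 RPM in the unsorted groups and 7024 to 26635 RPM in the sorted groups, and the chloroplast markers were not among the loci of the tables. Small RNA signal at *RTL1* was 4.30 and 11.9 RPM in WT Col-0, 93.7 and 23.8 RPM with *pLAT52::RTL1* and 1023 and 302 RPM with *pMGH3::RTL1*, and at *NRPD1A* it was 6.67 and 3.62 RPM in WT FTL pollen against 13.1 and 4.69 RPM in the *nrpd1a-3* FTL grains. These are small RNAs at the genes and do not measure their messenger RNAs.

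Signal at tRNA loci made up a far larger share of the sorted than of the unsorted libraries. Summed over 18 to 30 nt it came to 139263 and 375374 RPM in WT Col-0, 283593 and 309771 RPM with *pLAT52::RTL1* and 446299 and 443562 RPM with *pMGH3::RTL1*. After sorting it came to 1210342 and 1744496 RPM in WT FTL pollen against 1620414 and 2235962 RPM in the *nrpd1a-3* FTL grains. As a share of all signal listed, the 6 unsorted libraries held 3.72% to 5.51% and the 4 sorted libraries 21.4% to 33.7%, with no overlap. Sorting and the collection of the pollen cannot be told apart in this difference, and no test was made of it. Both WT Col-0 libraries differed from each other by more than the *pLAT52::RTL1* or the *pMGH3::RTL1* libraries did.

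The fragments were short in unsorted pollen, where 19 nt was the most frequent length in all 6 libraries. It held 31.2% and 33.3% of the tRNA signal in WT Col-0, 30.9% and 32.3% in *pLAT52::RTL1* and 38.3% and 34.9% in *pMGH3::RTL1* pollen. Lengths of 18 to 20 nt together held between 61.5% and 78.8%. In the same libraries tRNA loci gave 12.9% to 20.2% of all signal of 18 to 20 nt but 1.45% to 2.54% of that of 21 and 22 nt and 0.862% to 1.51% of that of 23 and 24 nt, the lengths of small interfering RNAs. A second, lower peak stood at 25 nt in 5 of the 6 libraries, all but replicate 2 of WT Col-0, with 6.22% and 1.17% in WT Col-0, 7.31% and 3.54% in *pLAT52::RTL1* and 4.87% and 3.26% in *pMGH3::RTL1* pollen, so that replicate 1 was the higher library of each group.

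In its shares of 18 and 22 nt, sorted pollen differed more between its replicates than between its genotypes. In replicate 1, 18 nt was the most frequent length, with 46.4% in WT FTL pollen against 48.4% in the *nrpd1a-3* FTL grains. In replicate 2, 18 nt was still the most frequent length in WT FTL (26.2%) but 19 nt in *nrpd1a-3* FTL pollen (14.4%, with 13.7% at 18 nt), and 22 nt held 10.2% and 11.8% where replicate 1 had 2.69% and 3.06%. At 25 nt the shares were 1.23% and 4.90% in the WT FTL libraries and 1.72% and 12.7% in the *nrpd1a-3* FTL libraries. At this length the genotypes lay further apart in replicate 2 than the WT FTL libraries did. The longer fragments thus stood with the replicate number in both genotypes, and the replicate number was not tested as a cause because the labels do not say what it marks.

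**Figure D1:**
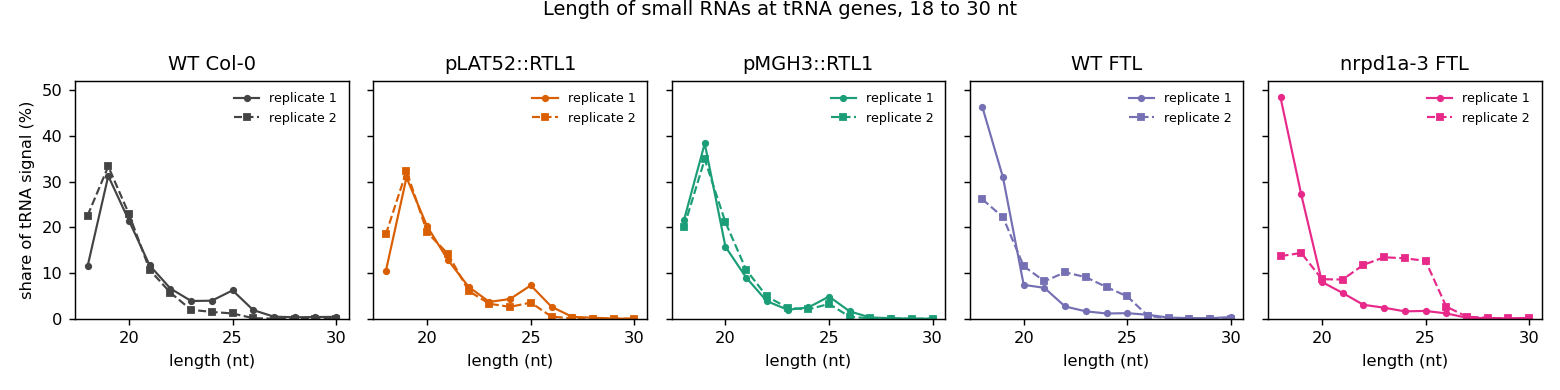
Share of the tRNA signal (y axis, percent) at each length from 18 to 30 nt (x axis), with 1 panel for each group and 1 line for each of its 2 libraries. The 6 unsorted libraries peak at 19 nt, replicate 1 of both sorted groups and replicate 2 of WT FTL peak at 18 nt, and replicate 2 of both sorted groups has a broad tail to 25 nt.

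The signal of a tRNA gene followed its first bases. This was measured on pairs of genes with different sequences, over the mean of all 10 libraries, among pairs in which the higher gene had at least 20 RPM at the length compared. At 19 nt, 232 pairs shared the first 19 bases but not the last 19, and their signals differed by a median of 0.378% of the higher one. The 48 pairs that shared the last 19 bases but not the first 19 differed by a median of 82.1%. With equality taken as a difference of at most 0.1%, 13.8% of the pairs with a common 5′ end were equal and 0% of those with a common 3′ end, and with 1% these shares were 56.9% and 4.17%. Pairs with a common 5′ end differed by a median of less than 1.4% at each length from 19 to 25 nt, and pairs with a common 3′ end by at least 79.6%.

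Most of the pairs with a common 5′ end were tyrosine genes, which have introns. Without Tyr-GTA, 62 pairs were left at 19 nt with a median difference of 10.4%, and at 23 nt 40 pairs with a median of 0.994%. The length of 18 nt stood apart, since 121 pairs with a common 5′ end differed there by a median of 49.0%, and by 8.27% in the 66 pairs without Tyr-GTA. Pairs share genes and are no independent replicates, so these values describe the tables. The authors kept perfect matches to the genome, so fragments that end in the added CCA, cross a removed intron or carry a mismatch at a modified base were not counted. These values therefore describe encoded sequence alone.

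**Figure D2:**
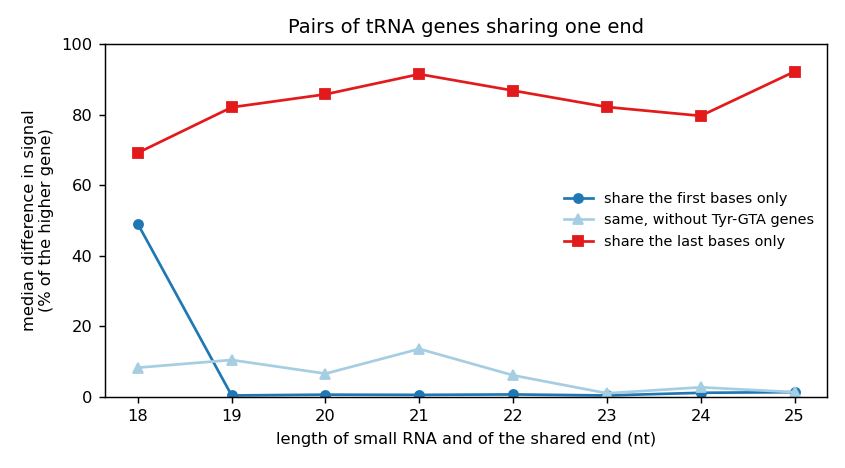
Median difference in signal between 2 tRNA genes, as a percent of the higher gene (y axis, from 0), against the length of the small RNA and of the shared end (x axis, 18 to 25 nt). Pairs that share the first bases lie near 0 from 19 nt on, with Tyr-GTA genes (dark circles) or without them (light triangles, 13.6% at most), and pairs that share the last bases (squares) lie between 69.2% and 92.2%.

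Grouped by their first 19 bases, the tRNA genes formed 132 families, and a few of them held most of the signal. In the unsorted libraries 7 to 9 families made up 50% of it, and in the sorted libraries 4 to 8. Families that begin with G numbered 107 of 132 and held 87.2% of the mean signal. By gene, the mean over the 10 libraries ran from 1.502 to 43598 RPM with a median of 855.9 RPM, and 241 loci had at least 1000 RPM.

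Arg-CCG stood first in all 6 unsorted libraries although only 2 genes, AT1G79240 and AT1G16450 (chr1:5619471-5619543, minus strand), share its 5′ end. AT1G79240 had 12297 and 30127 RPM in WT Col-0, 28350 and 22942 RPM with *pLAT52::RTL1*, 45127 and 53336 RPM with *pMGH3::RTL1*, and 114030 and 20363 RPM in WT FTL pollen against 95507 and 13895 RPM in the *nrpd1a-3* FTL grains. The *pMGH3::RTL1* libraries lay above all other unsorted ones, and in both sorted groups replicate 1 was over 5 times as high as replicate 2. AT1G16450 has the same mature sequence, and its mean of 43589 RPM was almost that of AT1G79240, because the reads are divided between both genes. As a share of the tRNA signal, the pair held 14.8% to 24.05% in the unsorted libraries, and 18.8% and 2.33% in WT FTL pollen against 11.8% and 1.24% in the *nrpd1a-3* FTL grains.

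AT3G04525 reads the same codon and gave far less signal. It had 130.2 and 499 RPM in WT Col-0, 301 and 264 RPM with *pLAT52::RTL1* and 483 and 660 RPM with *pMGH3::RTL1*, and its mean over the 10 libraries was 755.6 RPM. Counted from the first base of the gene, it differs from AT1G79240 by A2T, C3T and C4T within the first 19 bases and by 6 bases after them. Arginine as a whole was the amino acid with the highest signal in the unsorted libraries, where its 36 genes held 34.5% to 47.1%. After sorting, arginine held 36.2% and 11.6% in WT FTL pollen against 23.8% and 7.46% in the *nrpd1a-3* FTL grains, and alanine held 2.08% and 10.7% in WT FTL pollen against 2.99% and 16.4% in the *nrpd1a-3* FTL grains, and 2.45% to 4.38% in the unsorted libraries. AT3G04525 was chosen after its values were seen.

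The Ser-AGA family of 29 genes had the highest mean signal of all families over the 10 libraries, and ranked below Arg-CCG in each unsorted library. It summed to 11942 and 42738 RPM in WT Col-0, 16296 and 18138 RPM with *pLAT52::RTL1* and 29817 and 26128 RPM with *pMGH3::RTL1*. After sorting it summed to 214680 and 170209 RPM in WT FTL pollen against 467669 and 220283 RPM in the *nrpd1a-3* FTL grains. Its share reached 28.9% of the tRNA signal in replicate 1 of *nrpd1a-3* FTL and was 5.75% to 11.4% in the unsorted libraries. By their mean over the 10 libraries, 4 genes of the Thr-CGT family came next after the Arg-CCG pair, with 10194 RPM for AT5G60966, 10189 RPM for AT1G75740, 10163 RPM for AT1G13720 and 9780 RPM for AT2G03660. AT1G75740 had 831 to 2747 RPM in the unsorted and 14572 to 34453 RPM in the sorted libraries, so these groups of libraries did not overlap. The rank rests on the sorted libraries, since the Arg-TCT gene AT2G36600, with 2427 to 6902 RPM in the unsorted libraries, had the higher mean there.

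The families differed in length as well as in level. Arg-CCG fragments had 18 to 20 nt in 84.2% to 96.1% of their signal in every library. Tyr-GTA, whose 5′ end is shared by 64 genes, was most frequent at 21 nt in the 6 unsorted libraries, and Ser-GCT at 22 nt. The Ala-AGC family of 15 genes had 27.0% to 67.0% of its signal at 22 to 25 nt in the unsorted libraries, and 16.5% and 56.04% in WT FTL pollen against 23.3% and 74.7% in the *nrpd1a-3* FTL grains. Arg-TCG did not follow the higher level of the sorted libraries, with 4970 to 25247 RPM in the unsorted and 5369 to 10496 RPM in the sorted libraries, and its share was 3.004% to 5.95% against 0.367% to 0.477%.

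**Figure D3:**
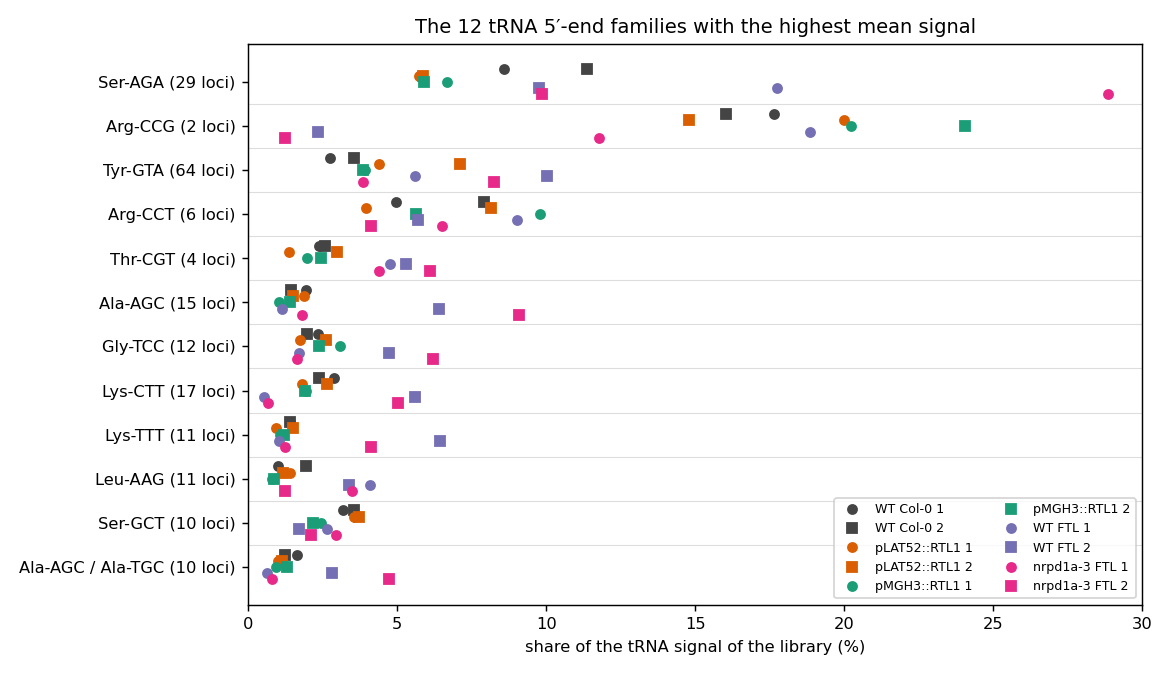
Share of the tRNA signal of each library (x axis, percent) held by the 12 families of tRNA genes with the highest mean signal (y axis, with the number of loci that share the first 19 bases). Circles are replicate 1 and squares replicate 2. Arg-CCG lies at 14.8% to 24.05% in the unsorted libraries and falls to 2.33% and 1.24% in replicate 2 of the sorted groups, while Ala-AGC and both Lys families lie highest in those same libraries.

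The first question between groups was whether RTL1 changed the signal at tRNA loci. Summed over all loci it was 296682 ± 18511 RPM with *pLAT52::RTL1* and 257318 ± 166956 RPM in WT Col-0 pollen (SD, n = 2 libraries each). The log2 difference was 0.37 and the *pLAT52::RTL1* libraries lay between the WT Col-0 libraries, with exact permutation p = 1. *pMGH3::RTL1* pollen had 444930 ± 1936 RPM (SD, n = 2 libraries), a log2 difference of 0.96 from WT Col-0 and of 0.59 from *pLAT52::RTL1*, with no overlap in either comparison and exact permutation p = 0.333. This is the smallest two-sided p that 2 against 2 libraries allow, so no summed value can pass 0.05 here. Within replicate numbers the log2 ratio to WT Col-0 was 1.03 and -0.28 in *pLAT52::RTL1* and 1.68 and 0.24 in *pMGH3::RTL1* pollen. As a share of all signal listed, *pMGH3::RTL1* pollen held 5.32% ± 0.253 and WT Col-0 4.61% ± 1.26 (SD, n = 2 libraries each), so that on this scale the groups overlapped, with a log2 difference of 0.23 and exact permutation p = 1.

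By length, both constructs lay above WT Col-0 without overlap at 23 and 24 nt in RPM. There the sums were 20509 ± 3163 RPM with *pLAT52::RTL1*, 19805 ± 123 RPM with *pMGH3::RTL1* and 11968 ± 1469 RPM in WT Col-0 pollen (SD, n = 2 libraries each). The log2 differences were 0.77 and 0.73, each with exact permutation p = 0.333. As a share of all signal listed, these lengths held 0.292% and 0.191% in WT Col-0, 0.436% and 0.275% in *pLAT52::RTL1* and 0.229% and 0.245% in *pMGH3::RTL1* pollen, so that on this scale both constructs overlapped with WT Col-0. At 18 to 20 nt *pLAT52::RTL1* pollen lay within the range of WT Col-0, and *pMGH3::RTL1* pollen lay above it by 1.05 on the log2 scale. At 25 to 30 nt the log2 differences were 1.26 and 1.49, and the *pLAT52::RTL1* libraries overlapped with WT Col-0.

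For single loci, limma was fitted to log2(signal + 1) of every locus that averaged 12 or more hit-weighted reads, and p-values were adjusted by the Benjamini-Hochberg method over all of them. Of the tRNA loci, 548 were tested in the RTL1 libraries. In *pLAT52::RTL1* pollen 2 of 548 rose (0.365%) and 0 fell, where 1.65% of all 11417 tested loci rose and 0.158% fell. At unadjusted p below 0.05, 68 were higher and 0 lower. All tested loci were not counted at this level, so these numbers have no background share and are no result about tRNA genes. The same holds for each count at unadjusted p given below. The median log2 difference of the tRNA loci was 0.35 and that of all tested loci 0.17, with 431 tRNA loci higher and 117 lower. This split depended on the scaling, since the median of the tRNA loci was 0.01 with 286 higher and 262 lower when libraries were scaled to the microRNA genes, 0.08 with 317 and 231 for the sum without structural RNAs, and 0.13 with 329 and 219 for the summed signal. In 119 of 548 (21.7%) both *pLAT52::RTL1* libraries lay above both WT Col-0 libraries, against 32.2% of all tested loci. A share of tRNA loci near or below that of all loci is no result about tRNA genes.

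In *pMGH3::RTL1* pollen 3 of 548 tRNA loci rose (0.547%) and 0 fell, where 0.482% of all tested loci rose and 0.955% fell. At unadjusted p below 0.05, 157 were higher and 0 lower, without a count of all tested loci to set beside them. The median log2 difference was 0.70 for tRNA loci and 0.07 for all tested loci, and 544 of 548 tRNA loci were higher. In 212 of 548 (38.7%) the groups did not overlap and *pMGH3::RTL1* was above, against 29.1% of all tested loci. This direction depended on the scaling, since the median of the tRNA loci was -0.03 with libraries scaled to the summed signal and -0.08 with libraries scaled to the microRNA genes, while that of all tested loci moved to -0.63 and -0.68. Without replicate 2 of WT Col-0 401 of 549 tRNA loci rose in *pMGH3::RTL1* and 181 in *pLAT52::RTL1* pollen, where 10.7% and 5.92% of all tested loci rose. Without replicate 1 of WT Col-0 these counts were 8 and 1 of 548, where 1.07% and 2.12% of all tested loci rose, and 25 were reduced in *pLAT52::RTL1*, where 0.827% of all were, with a median of -0.30 for the tRNA loci. With any other library left out, 0 loci rose in *pMGH3::RTL1* and 0 or 1 in *pLAT52::RTL1* pollen.

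Between the constructs, 0 of 548 tRNA loci passed the limma test, where 1.06% of all tested loci were higher and 2.51% lower in *pMGH3::RTL1* pollen. At unadjusted p below 0.05, 29 were higher in *pMGH3::RTL1* and 1 lower, again without a count of all tested loci. With limma-voom 0 were raised and 3 reduced, where 54 and 613 of all 11417 tested loci were. With only the 4 libraries of the comparison 30 of 549 were raised and 1 reduced, where 307 and 396 of all 11065 were. The median log2 difference of the tRNA loci was 0.32, with 480 higher and 68 lower. In 268 of 548 (48.9%) both *pMGH3::RTL1* libraries lay above both *pLAT52::RTL1* libraries and in 13 (2.37%) below, against 29.0% and 30.2% of all tested loci. The median turned to -0.18 with libraries scaled to the summed signal and to -0.11 with the microRNA genes.

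The 3 loci that rose in *pMGH3::RTL1* pollen are the Arg-TCT genes AT4G32265, AT4G31075 and AT2G25400, which share their first 19 bases. AT4G32265 had 77.5 and 121 RPM in WT Col-0, 174 and 175 RPM with *pLAT52::RTL1* and 263 and 272 RPM with *pMGH3::RTL1*. The 3 groups did not overlap and *pMGH3::RTL1* was highest. The log2 difference from WT Col-0 was 1.45 ± 0.26 (SE) with a limma adjusted p of 0.0405, and for AT4G31075 and AT2G25400 it was 1.44 and 1.43 with adjusted p of 0.0428 and 0.0449. These 3 loci share their reads and count as 1 source of signal. Another Arg-TCT gene, AT2G36600, whose 5′ end differs by A3G and A7G counted from the first base, had 2427 and 6587 RPM in WT Col-0 and 6902 and 6509 RPM with *pMGH3::RTL1*, so that its groups overlapped. AT2G36600 was chosen after its values were seen.

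Among the arginine families the groups were separate in some and overlapped in others. The 6 genes of the Arg-TCG family summed to 4970 and 11277 RPM in WT Col-0, 14990 and 18440 RPM with *pLAT52::RTL1* and 25247 and 23102 RPM with *pMGH3::RTL1*. The groups did not overlap, with log2 differences from WT Col-0 of 1.15 and 1.69 and exact permutation p = 0.333 for each. Within replicate numbers the log2 ratios were 1.59 and 0.71 for *pLAT52::RTL1* and 2.34 and 1.03 for *pMGH3::RTL1*. Their common sign follows from the lack of overlap and adds no support. The 6 genes of the Arg-CCT family summed to 6885 and 29764 RPM in WT Col-0, 11189 and 25228 RPM with *pLAT52::RTL1* and 43722 and 24920 RPM with *pMGH3::RTL1*, so that both constructs overlapped with WT Col-0, and the *pLAT52::RTL1* libraries of the Arg-CCG family lay between those of WT Col-0. AT5G10235, an Arg-ACG gene, had 659 and 1529 RPM in WT Col-0, 1449 and 1597 RPM with *pLAT52::RTL1* and 3983 and 3442 RPM with *pMGH3::RTL1*, with a log2 difference of 1.88 ± 0.39 (SE) between *pMGH3::RTL1* and WT Col-0 and a limma adjusted p of 0.0559. AT5G10235 was chosen after its values were seen.

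Both loci that rose in *pLAT52::RTL1* pollen, AT2G07792 and AT2G07765, are Tyr-GTA genes in a stretch of chromosome 2 that repeats mitochondrial sequence. Their sequences share the first bases and a long 3′ part. Reads from this shared part are divided between both loci, so the loci are not independent. AT2G07792 had 38.5 and 59.1 RPM in WT Col-0, 143.9 and 148 RPM with *pLAT52::RTL1* and 114 and 108 RPM with *pMGH3::RTL1*. The *pLAT52::RTL1* libraries were the highest and the WT Col-0 libraries the lowest, and the log2 difference between them was 1.59 ± 0.26 (SE) with a limma adjusted p of 0.0242. AT2G07765 had 164 and 236 RPM in WT Col-0, 471 and 469 RPM with *pLAT52::RTL1* and 490 and 447 RPM with *pMGH3::RTL1*. Here both constructs lay above WT Col-0 and overlapped with each other, and the log2 difference was 1.25 ± 0.25 (SE) for each, with a limma adjusted p just inside the threshold in *pLAT52::RTL1* (0.04996) and outside it in *pMGH3::RTL1* pollen (0.0548).

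**Figure D4:**
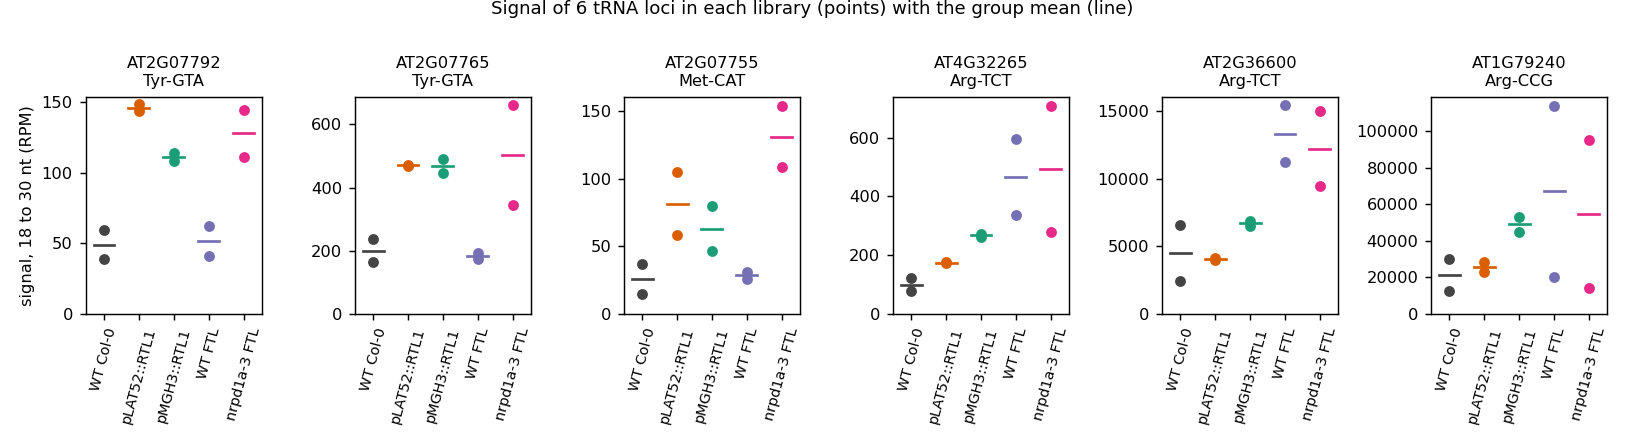
Signal of 18 to 30 nt (y axes, RPM, each from 0) at 6 tRNA loci in the 5 groups (x axes), with 1 point for each library and a line at the mean of 2. AT2G07792, AT2G07765 and AT2G07755 are higher in both RTL1 groups than in WT Col-0 and in *nrpd1a-3* FTL than in WT FTL, AT4G32265 rises from WT Col-0 to *pMGH3::RTL1*, and at AT1G79240 the replicates of sorted pollen lie far apart.

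A group of tRNA loci was then formed from sequence alone, after these values had been seen. The whole gene sequence of 21 loci is also present in the mitochondrial genome of TAIR10.1, and 0 loci match the plastid genome in this way. The other tRNA genes are called loci of nuclear sequence only. This name rests on the whole gene, and matches of shorter stretches to an organelle genome did not enter it. All 21 lie within chr2:3255832-3503608, where a copy of mitochondrial DNA is inserted in the nuclear chromosome, and they include 21 of the 23 tRNA loci whose identifiers begin with AT2G07. Plant mitochondria make some of their tRNAs from their own genome and import the others. A read that matches these loci may come from a mitochondrial tRNA or from the nuclear copy, and these cannot be told apart. Mitochondrial loci are not among those of the tables, and whether hits in the mitochondrial genome entered the division of reads is not given in the sources used here.

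These loci summed to 2738 and 5135 RPM in WT Col-0, 9056 and 9921 RPM with *pLAT52::RTL1* and 7100 and 8716 RPM with *pMGH3::RTL1*. After sorting they summed to 5701 and 5870 RPM in WT FTL pollen against 10796 and 8370 RPM in the *nrpd1a-3* FTL grains. Both RTL1 groups lay above WT Col-0 and *nrpd1a-3* FTL above WT FTL, without overlap. The MIR165 and MIR166 genes, the markers of other floral tissue, had 52343 and 115511 RPM in WT Col-0, 119123 and 148920 RPM with *pLAT52::RTL1* and 111812 and 117179 RPM with *pMGH3::RTL1*, and 7024 and 24973 RPM in WT FTL pollen against 15682 and 26635 RPM in the *nrpd1a-3* FTL grains. They were thus also above WT Col-0 without overlap in *pLAT52::RTL1*, with overlap in the other groups, and their part in the result was not tested. As a share of the tRNA signal the loci of mitochondrial sequence held 1.97% and 1.37% in WT Col-0, 3.19% and 3.20% in *pLAT52::RTL1* and 1.59% and 1.96% in *pMGH3::RTL1* pollen. After sorting they held 0.471% and 0.336% in WT FTL pollen against 0.666% and 0.374% in the *nrpd1a-3* FTL grains. On that scale only the *pLAT52::RTL1* libraries stood clear of WT Col-0, and the sorted groups overlapped.

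Of the 21 loci, 19 remain with identical ones counted once and 16 passed the filter on low values. In *pLAT52::RTL1* pollen all 16 were higher than in WT Col-0, 2 of them past the threshold and 15 at unadjusted p below 0.05, with log2 differences from 0.60 to 2.08 and a median of 1.27. The 527 tested loci of nuclear sequence only had a median of 0.35, and 411 of them were higher. In *pMGH3::RTL1* pollen all 16 were higher, 0 past the threshold in limma and in limma-voom and 11 at unadjusted p below 0.05, with a median of 1.07 against 0.68. With libraries scaled to the summed signal, the microRNA genes or the sum without structural RNAs 14 of 16 were higher, and 1 at unadjusted p below 0.05. The medians were then 0.35, 0.30 and 0.49, against -0.03, -0.09 and 0.10 for loci of nuclear sequence only. With the median ratio all 16 were higher, 11 at that level, with a median of 1.00. Members of this group had been seen to rise before it was formed, so its counts describe these libraries and no test was made of the group.

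The most abundant of these loci were AT2G07764, an Asn-GTT gene, and AT2G07743, an Asp-GTC gene. AT2G07743 (chr2:3255832-3255905, minus strand) had 695 and 1253 RPM in WT Col-0, 2396 and 3636 RPM with *pLAT52::RTL1* and 1664 and 2223 RPM with *pMGH3::RTL1*. Both RTL1 groups were above WT Col-0 and *pLAT52::RTL1* was highest, with a log2 difference of 1.66 ± 0.37 (SE) and a limma adjusted p of 0.0742. The largest log2 difference, 2.08 ± 0.42 (SE) with a limma adjusted p of 0.0567, was at AT2G07758, a Met-CAT gene, which had 63.9 and 81.3 RPM in WT Col-0 and 500 and 190 RPM with *pLAT52::RTL1*. The fragments at these loci were spread more widely in length than those of all tRNA loci, with 27.9% and 56.1% at 18 to 20 nt in WT Col-0, 28.6% and 38.1% in *pLAT52::RTL1* and 44.7% and 47.0% in *pMGH3::RTL1* pollen. The 95 other loci of the stretch summed to 186014 and 339491 RPM in WT Col-0, 668270 and 355151 RPM with *pLAT52::RTL1* and 561885 and 505088 RPM with *pMGH3::RTL1*, so that they too were lowest in WT Col-0. AT2G07743 and AT2G07758 were chosen after their values were seen.

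**Figure D5:**
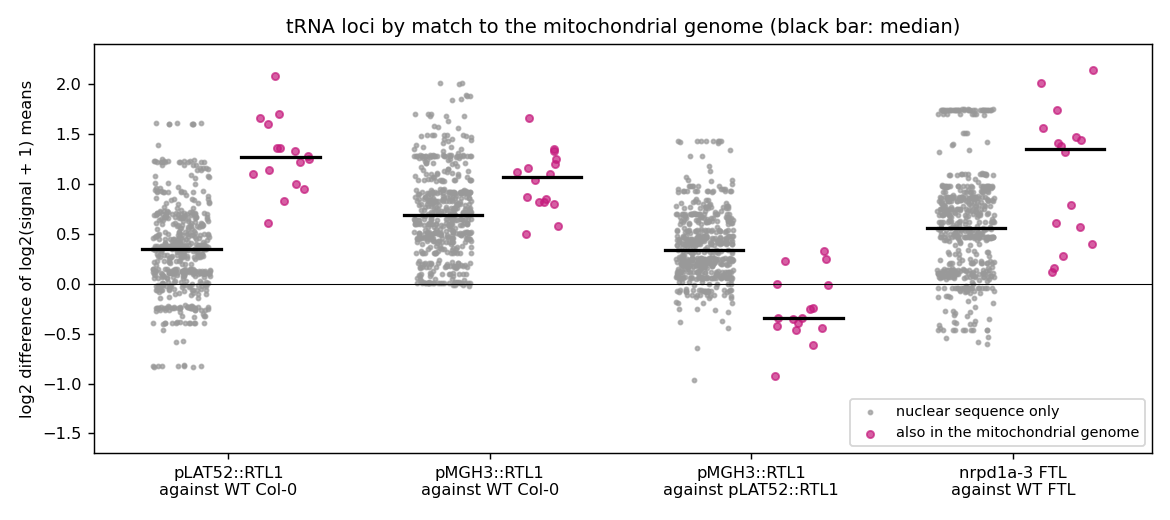
Log2 difference (y axis, on log2(signal + 1)) of each tested tRNA locus in the 4 comparisons (x axis), with black bars at the medians. Grey points are loci whose whole gene sequence is not in an organelle genome (nuclear sequence only). Coloured points are the 16 tested loci whose whole gene sequence is also in the mitochondrial genome. The coloured loci have the higher median against both controls and the lower one between the constructs, at 1.27 and 0.35, 1.07 and 0.68, -0.35 and 0.33, and 1.35 and 0.56.

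The second question was whether loss of RNA polymerase IV in the pollen changed the signal at tRNA loci. Summed over all loci it was 1928188 ± 435258 RPM in *nrpd1a-3* FTL and 1477419 ± 377704 RPM in WT FTL pollen (SD, n = 2 libraries each). The groups overlapped, with a log2 difference of 0.39 and exact permutation p = 0.667. Within replicate numbers the log2 ratios were 0.42 and 0.36, and as a share of all signal listed the difference was -0.13. At 23 and 24 nt the log2 difference was 1.03, with ratios of 0.96 and 1.09 within replicate numbers and overlapping groups, because WT FTL had 33749 and 279863 RPM and *nrpd1a-3* FTL had 65616 and 596747 RPM.

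Among 556 tested tRNA loci 1 rose in *nrpd1a-3* FTL pollen (0.18%) and 0 fell in the limma test, where 0.0686% of all 7286 tested loci rose and 22% fell. At unadjusted p below 0.05, 47 were higher and 0 lower, with no count of all tested loci at this level. With limma-voom 1 rose and 0 fell, where 2 of all 7286 tested loci rose and 2874 fell. The median log2 difference of the tRNA loci was 0.58 with 485 higher and 71 lower, against -1.003 for all tested loci. It was 0.07 with 310 higher and 246 lower when libraries were scaled to the summed signal and -0.05 with 269 and 287 in limma-voom, and 1.78 with all 556 higher when they were scaled to the median ratio. In 141 of 556 (25.4%) both *nrpd1a-3* FTL libraries lay above both WT FTL libraries and in 1 both lay below, against 16.9% and 51% of all tested loci. The locus that rose was AT2G07755, a Met-CAT gene in the stretch of mitochondrial sequence. It had 26.0 and 31.3 RPM in WT FTL pollen against 154 and 109 RPM in the *nrpd1a-3* FTL grains, with a log2 difference of 2.14 ± 0.59 (SE) and a limma adjusted p of 0.0442. Its groups did not overlap. Without replicate 1 of *nrpd1a-3* FTL 113 of 559 tRNA loci rose, where 3.22% of all tested loci rose and 43.7% fell, without its replicate 2 there were 2, and without either WT FTL library 0, while the median was -0.01 without replicate 1 of WT FTL and 0.02 without replicate 2 of *nrpd1a-3* FTL. With the replicate number as a block 101 of 556 tRNA loci rose and 0 fell, where 9.31% of all tested loci rose and 48.4% fell. Both kinds of pollen were sorted at the same time from plants of 1 genotype, but the labels do not say that a number marks 1 sort, so this fit is given beside the other one. In unsorted pollen AT2G07755 had 14.6 and 36.9 RPM in WT Col-0, 105 and 58.2 RPM with *pLAT52::RTL1* and 79.6 and 46.7 RPM with *pMGH3::RTL1*.

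All 16 tested loci with mitochondrial sequence were higher in *nrpd1a-3* FTL pollen, 1 past the threshold and 4 at unadjusted p below 0.05, with log2 differences from 0.12 to 2.14. Their median was 1.35, against 0.56 for the 536 tested loci of nuclear sequence only, of which 466 were higher. With libraries scaled to the summed signal 12 of 16 were higher, and when a library was left out 13 to 15 of 16 were higher. With the replicate block 9 of 16 passed the threshold, where 678 of all 7286 tested loci rose and 3523 fell. The difference between the medians was not tested.

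In the main fit the proline genes were next to the threshold. The family of 47 loci with Pro-AGG, Pro-CGG or Pro-TGG anticodons that share the first 19 bases summed to 10769 and 9036 RPM in WT FTL pollen against 24597 and 33156 RPM in the *nrpd1a-3* FTL grains. The groups did not overlap, with a log2 difference of 1.53 (exact permutation p = 0.333) and log2 ratios of 1.19 and 1.88 within replicate numbers. Of the 45 tested Pro-TGG loci all were higher, 43 at unadjusted p below 0.05 and 0 past the threshold in limma. Their lowest limma adjusted p was 0.0820 and their median log2 difference 1.74. The unadjusted count depended on the scaling. Among all 556 tested tRNA loci, 47 were higher at that level in the main fit. Only 1 was under limma-voom, 2 under microRNA scaling and 1 under summed-signal scaling, so most Pro-TGG loci missed it there. Leaving structural RNAs out of the sum kept 47, and median-ratio scaling gave 106. With the replicate block 678 of all 7286 tested loci rose and 3523 fell. In that fit 44 of the 45 Pro-TGG loci, 15 of 15 Pro-AGG, 4 of 5 Pro-CGG and 15 of 16 Ala-AGC loci passed the threshold. Many of these loci share their reads and are not independent. In unsorted pollen the family of 47 had 969 and 4664 RPM in WT Col-0, 1705 and 2221 RPM with *pLAT52::RTL1* and 1885 and 2819 RPM with *pMGH3::RTL1*, where the groups overlapped.

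The Ser-GCT and Ser-AGA families also had separate groups in sorted pollen, while the summed signal of the Ser-CGA, Ser-TGA and Ser-GGA loci overlapped between the groups. The Ser-GCT family of 10 genes summed to 31824 and 29824 RPM in WT FTL pollen against 47810 and 46831 RPM in the *nrpd1a-3* FTL grains, with a log2 difference of 0.62 and ratios of 0.59 and 0.65 within replicate numbers. Ser-AGA, whose sums stand above, differed by 0.75 on the log2 scale, with ratios of 1.12 and 0.37. Both had groups without overlap and an exact permutation p of 0.333. The same held for a Met-CAT family, with a log2 difference of 0.83. It had 16849 ± 3925 RPM in *nrpd1a-3* FTL and 9456 ± 2240 RPM in WT FTL pollen (SD, n = 2 libraries each). Of all tested loci, 16.9% had both *nrpd1a-3* FTL libraries above both WT FTL libraries. Separate groups alone therefore do not set the proline or serine families apart from other loci. The Arg-CCG family had the opposite sign, with a log2 difference of -0.40, but its groups overlapped because replicate 1 was far above replicate 2 in both genotypes.

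Small RNAs at the genes of tRNA-processing enzymes gave no call. Of 11 such genes, which encode RNS ribonucleases, Dicer-like 1, protein-only RNase P enzymes and tRNase Z enzymes, only *DCL1* and *RNS2* passed the filter on low values. *RNS2* encodes a vacuolar RNase T2 that degrades ribosomal RNA, and its log2 difference between *pLAT52::RTL1* and WT Col-0 was 1.58 ± 0.40 (SE) with a limma adjusted p of 0.0998. *DCL1* encodes the enzyme that makes microRNAs, and its log2 difference in the same comparison was -0.48 ± 0.29 (SE) with a limma adjusted p of 0.399. These values are small RNAs at the genes and say nothing of their expression.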

How the data were processed

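Pollen small RNAs of 10 libraries were sequenced by the study as single-end reads and mapped to TAIR10 with bowtie, and perfect matches were kept. The deposited signal is the number of reads per locus and length, divided by genomic hits and scaled by the authors to RPM. The values of a library sum to between 3743341 and 8672909 RPM, more than a scaling to all perfectly mapped reads of 18 to 30 nt, which the study describes, would leave, so the total that was used is unclear. Signal of 18 to 30 nt was summed for each locus. Loci averaging 12 or more hit-weighted reads were tested on log2(signal + 1) by limma 3.58.1 (R 4.3.3) with a variance trend and a Benjamini-Hochberg adjusted p of 0.05. The 6 unsorted libraries were fitted together (3 residual degrees of freedom) and the 4 sorted ones apart (2). A weighted signal is not a count, so the DESeq2 test of the study was not used. Fold changes on this scale are too small for low loci.

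Genes were placed by the RefSeq annotation of TAIR10.1, whose nuclear identifiers matched all 631 loci. Sums were compared with exact two-sided permutation tests. Named loci are the 6 with the highest mean, the 3 largest increases and decreases past the threshold in each comparison, the highest of mitochondrial sequence and the highest at the most frequent lengths, and the text says which others were chosen after their values were seen. The family examples are families of high mean or separate groups, also chosen after seeing the data. The members and lists were chosen with earlier results of these data known. Nothing in the labels says what a replicate number marks, and p-values measure only the spread between these libraries. Alternatives were 4 scalings, no filter, pseudocounts of 0.1 and 5, a replicate block, no variance trend, limma-voom, length classes, other sets of libraries and each library left out. The procedure was run on simulated data with independent noise at each locus and no shift shared by a library. That run therefore does not measure how the calls behave under the spread of these libraries. Python 3.11.15, pandas 2.3.3, numpy 2.4.6, SciPy 1.17.1 and matplotlib 3.10.9 were used. Lengths above 30 nt entered no comparison.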

Additional observations from a re-analysis of the deposited data

Results flagged for a closer look

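tRNA signal above 30 nt was listed in replicate 1 of both sorted groups, and 0 values of such lengths were listed in the other 8 libraries. It stood out because these lengths enter no comparison. It summed to 35518 RPM in WT FTL pollen against 25538 RPM in the *nrpd1a-3* FTL grains, which was 44.0% and 55.99% of all signal above 30 nt in these libraries. The most frequent of these lengths was 31 nt, with 14065 and 10364 RPM. Glu-TTC held 31.6% and 28.7% of this tRNA signal, Gly-GCC 25.5% and 24.2%, and Gly-TCC 24.8% and 23.7%, so the order of these tRNAs was the same in both libraries. A cause was not tested.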

How the results depend on the processing

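Counts of tRNA loci past the threshold were low and unstable. In *pLAT52::RTL1* against WT Col-0 the 2 raised loci became 4 of 548 with scaling to the microRNA genes, where 1.98% of all loci rose. They became 12 with scaling to the sum without structural RNAs (2.51% of all), 10 with limma-voom (1.61%) and 1 with a pseudocount of 0.1 (1.59%). At 23 and 24 nt alone 35 of 373 tested were raised and 1 reduced, where 3.52% of all loci rose and 0.183% fell. The count was 0 without the variance trend, at 18 to 20 or 25 to 30 nt, with only the 4 libraries of the comparison or with all 10. In *pMGH3::RTL1* against WT Col-0 the 3 raised loci became 8 of 548 with scaling to the microRNA genes, where 0.42% of all loci rose. They became 14 with the sum without structural RNAs (0.596% of all), 7 with the median ratio (0.692%) and 1 with limma-voom (0.123%). By length they were 1 of 427 at 21 and 22 nt (0.806% of all) and 18 of 373 at 23 and 24 nt, where 1.38% of all rose. The count was 0 with the summed signal, without the trend, at 18 to 20 or 25 to 30 nt, with 4 libraries or with 10. Between the constructs, where 0 passed, 9 were raised and 2 reduced with the sum without structural RNAs, where 130 and 1080 of all 11417 loci were. At 23 and 24 nt these counts were 2 and 3, against 87 and 825 of all 7121, and with 4 libraries 30 and 1, against 307 and 396 of all 11065. With the summed signal, the microRNA genes and limma-voom 2, 4 and 3 were reduced, where 1076, 1521 and 613 of all 11417 were. In *nrpd1a-3* FTL against WT FTL the 1 raised locus became 57 of 556 with all 10 libraries, where 3.52% of all loci rose and 45.7% fell, and 0 with the median ratio, no filter, a pseudocount of 0.1, no trend or any length class alone. With each library left out, raised loci ranged from 0 to 181, 0 to 401, 0 to 30 and 0 to 113 in these 4 comparisons, and reduced loci from 0 to 25, 0 to 0, 0 to 1 and 0 to 0. The 113 came without replicate 1 of *nrpd1a-3* FTL. Causes were not tested.

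The replicate block gave 2, 2, 0 and 101 raised tRNA loci, where 165, 57 and 109 of all 11417 and 678 of all 7286 tested loci rose. In *pLAT52::RTL1* pollen AT2G07792 passed and AT2G07765 did not (limma adjusted p 0.0693), while the Asp-GTC gene AT2G07743 did (0.0358), and in *pMGH3::RTL1* pollen AT4G32265 and AT4G31075 passed and AT2G25400 did not (0.0512). Deviations of libraries with the same number correlated over tRNA loci at 0.83 in sorted pollen and at 0.04 to 0.22 between the unsorted groups, which is a hint from 2 libraries a group and no pairing that the labels give. Summed tRNA signal turned within replicate 2 in *pLAT52::RTL1* against WT Col-0 (-0.28), at 23 and 24 nt between the constructs (-0.042, or -0.55 as a share of all signal listed, a scale chosen after seeing the data) and with the summed signal in *nrpd1a-3* FTL against WT FTL (-0.13). With each library left out it ranged from -0.34 to 1.09, 0.25 to 1.68, 0.52 to 0.65 and 0.13 to 0.65. Equal signal at a tolerance of 1% was found in 56.9% of pairs with a common 5′ end and 4.17% of pairs with a common 3′ end. The 6 loci past the threshold kept their sign under all alternatives run, but each missed the threshold in 9 to 18 of them. The 16 loci of mitochondrial sequence, a grouping chosen after seeing the data, were higher in 15 to 16, 14 to 16 and 13 to 15 cases against the controls with each library left out. With 2 libraries a group, differences within the spread of the WT Col-0 replicates were not detectable.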
